A study of Mus musculus with 12 samples.

Results

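The RNA levels of 42 genes of mitosis and the G2/M transition were followed in mouse T cell cultures with and without TNF receptor 2. The members were taken by gene symbol from the deposited expression table, and all 42 were found among its 47643 genes. Splenic naive CD4 T cells of C57BL/6 mice are the source that the labels give for all 12 libraries. Every group was stimulated until day 3 at 500000 cells per well through plate-bound anti-CD3 and anti-CD28, each at 2 µg/ml. The 4 groups of 3 libraries were wild type (WT) without added cytokine (Th0), WT given 20 ng/ml of IL-6, WT given 20 ng/ml of TNF, and Tnfr2-/- given TNF at that same dose. All groups but Th0 also received 2 ng/ml of TGF-β. Tnfr2-/- mice lack TNF receptor 2, the product of Tnfrsf1b, and the labels do not state which exons were removed. No culture of Tnfr2-/- cells without cytokine, and none with TGF-β alone, is used here. Effects of the genotype that need TNF and those that do not therefore cannot be told apart. The labels speak of triplicates without naming separate mice or cultures, so p-values measure only the spread between these libraries, which may be technical.

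A resting T cell that is activated through its receptor and CD28 leaves quiescence and divides repeatedly over the following days. Genes needed to enter and complete mitosis are transcribed late in the cell cycle, from the end of S phase to mitosis, and their RNA is low in resting cells. Much of this timing runs through the DREAM complex, which holds these genes silent in quiescent cells, and through the activators B-Myb and FoxM1, which act with the MuvB core on CHR elements and beside NF-Y on CCAAT boxes. The 42 members cover the cyclins and Cdk1 that start mitosis, the mitotic kinases, the chromosomal passenger complex, centromere and kinetochore proteins, spindle motors, cytokinesis proteins, regulators of anaphase, and 3 genes of transcription and chromatin.

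The letters of a few member promoters are shown because CHR and CCAAT motifs are the feature that genes of this kind are known to share. RefSeq promoter windows on GRCm38.p6, from 250 bases before to 50 bases after the start, matched 35 of the 42 members and gave 37 windows. The sequences run 5′ to 3′ over 120 bases upstream of the start, leaving out exons of the gene in GENCODE vM21, and capitals mark TTTGAA (the CHR core) and CCAAT on either strand, so that CCAAT on the other strand reads ATTGG.
Plk1 (chr7:122159315-122159434, plus strand): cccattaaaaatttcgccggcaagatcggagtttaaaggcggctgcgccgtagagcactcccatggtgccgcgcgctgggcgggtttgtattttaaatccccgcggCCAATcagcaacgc
Ccnb1 (chr13:100786571-100786690, minus strand): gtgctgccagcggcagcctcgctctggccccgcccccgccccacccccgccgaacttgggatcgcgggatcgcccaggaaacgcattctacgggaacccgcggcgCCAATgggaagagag
Ccnb2 (chr9:70421555-70421674, minus strand): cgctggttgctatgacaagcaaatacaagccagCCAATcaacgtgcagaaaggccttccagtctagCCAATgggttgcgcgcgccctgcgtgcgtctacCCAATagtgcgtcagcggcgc
Cdk1 (chr10:69352939-69353058, minus strand): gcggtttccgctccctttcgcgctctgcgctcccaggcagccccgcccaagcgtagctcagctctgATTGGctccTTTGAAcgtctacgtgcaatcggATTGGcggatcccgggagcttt
Cdc20 (chr4:118437353-118437472, minus strand): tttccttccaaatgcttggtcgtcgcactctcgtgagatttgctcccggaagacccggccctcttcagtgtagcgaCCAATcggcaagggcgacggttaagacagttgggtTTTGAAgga
Bub1 (chr2:127831866-127831985, minus strand): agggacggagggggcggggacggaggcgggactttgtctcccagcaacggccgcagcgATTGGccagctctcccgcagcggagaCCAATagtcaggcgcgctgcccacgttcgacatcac

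These upstream stretches held between 1 and 3 CCAAT motifs each, and those of Cdk1 and Cdc20 also held TTTGAA. The full windows of Plk1 and Ccnb2 held TTTGAA as well, outside the letters shown, while those of Ccnb1 and Bub1 held none. The CHR core on either strand was in 28 of the 37 member windows (75.7%), against 17.9% of all 32851 windows of the same length. CCAAT was likewise in 28 member windows (75.7%), against 37.4% of all windows. Both motifs were in 24 member windows (64.9%), against 7.0% of all windows, and at least 2 CCAAT motifs were in 19 (51.4%), against 11.7%. The GC-rich letters GGCGG were in 33 member windows (89.2%) and in 48.8% of all windows. The E2F-like letters TTTCGCG were in 2 member windows (5.4%, against 0.8%), and TTTGGCG was in 1 (2.7%, against 1.6%). All motifs were searched on both strands and counted separately, so that matches of different motifs may share bases. The windows of Pttg1, Birc5, Melk, Nuf2 and Nusap1 held neither TTTGAA nor CCAAT. Such matches describe letters in these windows and are not binding sites.

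The labels and the make-up of the cultures were checked before the members were compared. Levels are in FPKM, in which fragments are divided by transcript length and by the library's mapped fragments. Tnfrsf1b was at 74.4, 108 and 70.8 FPKM in the WT TNF+TGF-β libraries and at 4.87, 3.71 and 3.19 FPKM in the Tnfr2-/- libraries, a fall of 4.11 on the log2(FPKM + 1) scale (SE 0.26, limma adjusted p = 1.17e-06). Estimated depth ran from 16900000 to 24000000 fragments, with the Tnfr2-/- libraries, numbered 1, 2 and 4 in the table, the shallowest at up to 19300000. On the first principal component of the genes tested (32.1% of the variance) the Tnfr2-/- libraries lay between 42.73 and 79.22 and every WT library lay below 0. T cell markers were high throughout, but Cd8a and Cd8b1 both exceeded Cd4 in 11 of the 12 libraries, which the CD4 label would not give. B cell markers were present in every library and were highest in Tnfr2-/-, with values given beside the knockout comparison below.

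In the 9 WT libraries the members were strongly expressed. Over all 12 libraries single values ran from 0.26 FPKM, for the cortical scaffold gene Anln in Tnfr2-/- library 4, to 709 FPKM, for the ubiquitin-conjugating enzyme gene Ube2c in 1 WT IL-6+TGF-β library. The median member level, on the log2(FPKM + 1) scale, was 5.76, 5.88 and 5.77 in WT Th0. It was 5.87, 6.06 and 6.05 in the WT group given IL-6, and 6.10, 5.82 and 6.12 in the WT group given TNF. In the Tnfr2-/- libraries it was 4.74, 4.19 and 4.0. The 3 WT groups overlapped in this median, and each Tnfr2-/- library lay below every WT library. The summed FPKM of the members was between 3390 and 4719 in the WT libraries and was 1601, 1158 and 986 in the Tnfr2-/- libraries. In bulk RNA such as this, fewer dividing cells and less of these RNAs per cell cannot be told apart.

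**Figure D1:**
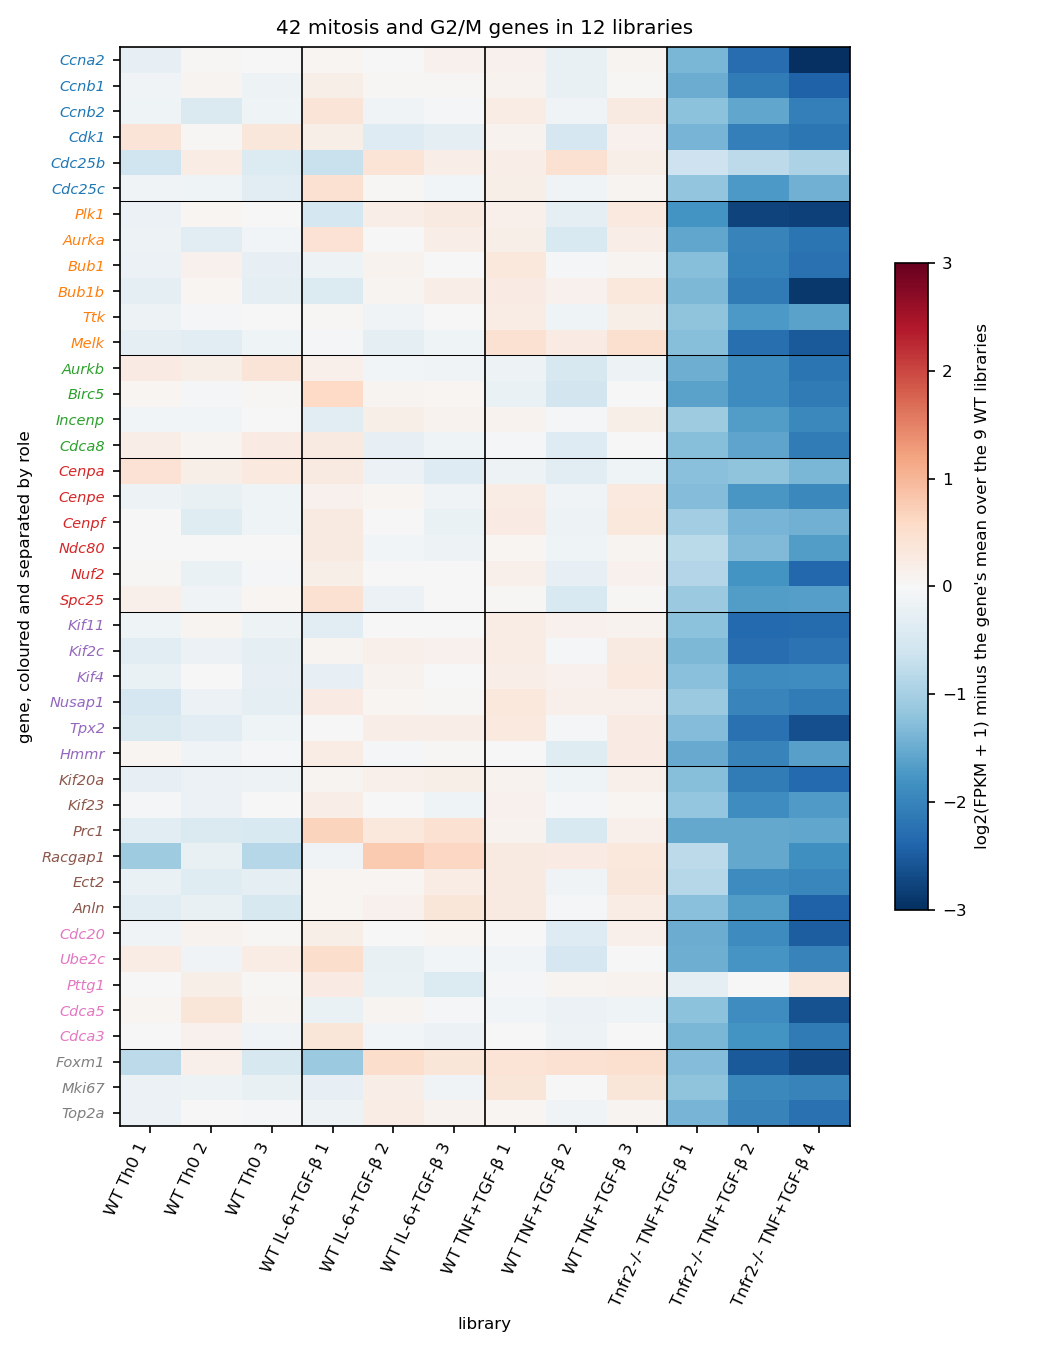
Heat map of the 42 members (rows, coloured and separated by role) in the 12 libraries (columns), with colour giving each library's log2(FPKM + 1) minus the gene's mean over the 9 WT libraries. The 3 Tnfr2-/- columns are blue for all rows but Pttg1, while the WT columns are pale apart from a few genes such as Racgap1, Prc1 and Foxm1.

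Comparing Tnfr2-/- with WT, both under TNF+TGF-β, asks which genes differ between the genotypes in these cultures. Markers of other cell types also differed between these groups, as given below, so dependence on the receptor was not tested. Of the 42 members, 41 were lower in Tnfr2-/- and 0 were higher at a limma p under 0.05 after Benjamini-Hochberg adjustment over 13082 genes. Over all genes tested, 17.5% were called lower and 19.9% higher. Under TPM scaling 42.5% of all called genes were higher, in place of 53.2%, and 71.9% were higher after scaling to T cell markers, with 41 members lower each time. All 41 fell by at least 1 on the log2(FPKM + 1) scale, a call and size reached by 7.46% of all genes tested. The groups did not overlap for those 41 (24.0% of all genes lay lower without overlap, and 26.8% higher), and for 39 members every Tnfr2-/- library was below all 9 WT libraries (8.13% of all genes). The median difference of the members was −1.77, against 0.00 over all genes tested, and 2.1% of the genes tested fell by as much as that median or more.

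**Figure D2:**
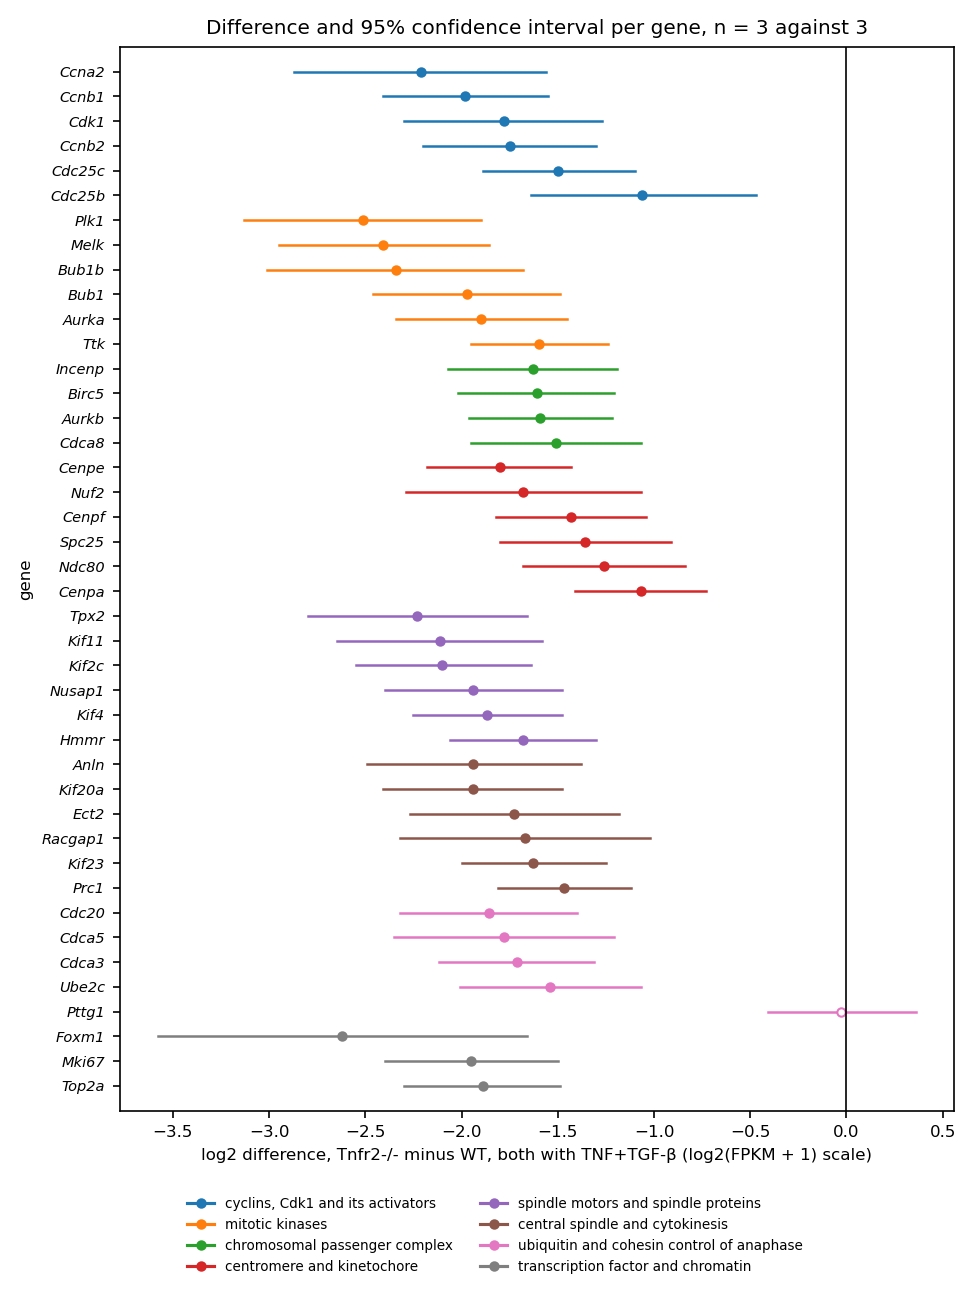
Difference between Tnfr2-/- and WT under TNF+TGF-β for each member on the log2(FPKM + 1) scale, with its 95% confidence interval from limma (3 libraries against 3), coloured by role. Every interval lies below 0 apart from that of Pttg1, and the points run from −2.62 for Foxm1 to −0.03 for Pttg1.

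Cyclins, Cdk1 and the phosphatases that activate Cdk1 were all lower in Tnfr2-/- (6 of 6, median −1.77). Cdk1, the kinase that drives entry into mitosis, was at 255, 165 and 259.9 FPKM in WT and 89.4, 56.1 and 51.97 FPKM in Tnfr2-/-. Its Tnfr2-/- libraries were all below its lowest WT library. Cdk1 fell by 1.78 (SE 0.24, limma adjusted p = 0.000142). Ccnb1, which encodes the main mitotic cyclin partner of Cdk1, was at 175, 139.7 and 167 FPKM in WT and 57.8, 37.05 and 29.6 FPKM in Tnfr2-/-. The groups did not overlap, with Tnfr2-/- library 1 the highest of the 3, and Ccnb1 fell by 1.98 (SE 0.20, limma adjusted p = 2.22e-05). Ccnb2, a second B-type cyclin gene, was at 184, 147 and 190.2 FPKM in WT and 66.6, 52.4 and 37.02 FPKM in Tnfr2-/-. It also showed no overlap and fell by 1.75 (SE 0.21, limma adjusted p = 6.56e-05). Ccna2 encodes cyclin A2, which acts in S phase and on the way into mitosis, and was at 162, 126 and 157 FPKM in WT and 56.7, 29.7 and 17.6 FPKM in Tnfr2-/-. Its levels spread over more than a 3-fold range among the Tnfr2-/- libraries, all below WT, and the fall was 2.21 (SE 0.30, limma adjusted p = 0.000166). The phosphatase genes differed in size of effect. Cdc25c was at 18.8, 15.1 and 17.5 FPKM in WT and 6.69, 4.32 and 5.43 FPKM in Tnfr2-/- and fell by 1.5, while Cdc25b was at 38.3, 46.2 and 37.5 FPKM in WT and 21.3, 18.97 and 16.8 FPKM in Tnfr2-/- and fell by 1.06 (SE 0.27, limma adjusted p = 0.00918). Cdc25b in Tnfr2-/- lay below every WT library under TNF+TGF-β and in Th0 (lowest Th0 library 21.7 FPKM), and overlapped only with WT IL-6+TGF-β, at 20.6, 44.2 and 38.1 FPKM.

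The 6 mitotic kinase genes were all lower, with a median difference of −2.16. Plk1 (chromosome 7, 122159439 to 122169873, GRCm38), the polo-like kinase that acts on centrosomes, kinetochores and cytokinesis, was at 126, 91.9 and 138 FPKM in WT and 31.8, 15.6 and 15.1 FPKM in Tnfr2-/-. All 3 Tnfr2-/- libraries were far below the lowest WT library. Plk1 was 119 ± 23.9 FPKM in WT and 20.9 ± 9.48 in Tnfr2-/- (SD, n = 3), and fell by 2.51 (SE 0.28, limma adjusted p = 4.75e-05). Melk (chromosome 4, 44300876 to 44364675), a kinase gene expressed in dividing cells, was at 46.9, 40.5 and 48.2 FPKM in WT and 13.5, 6.34 and 5.16 FPKM in Tnfr2-/-. Libraries 2 and 4 of Tnfr2-/- were lower than library 1, and Melk fell by 2.41 (SE 0.25, limma adjusted p = 2.93e-05). Bub1b encodes the spindle checkpoint protein BubR1 and was at 75.9, 69.8 and 79.5 FPKM in WT and 24.6, 13.96 and 7.74 FPKM in Tnfr2-/-. The groups were apart and the fall was 2.34 (SE 0.30, limma adjusted p = 0.000127). Aurka, the gene of the centrosome and spindle kinase Aurora A, was at 105, 67.2 and 108 FPKM in WT and 30.8, 22.4 and 19.6 FPKM in Tnfr2-/-, without overlap. It fell by 1.90 (SE 0.21, limma adjusted p = 3.89e-05). The remaining checkpoint kinase genes, Bub1 and Ttk (which encodes Mps1), fell by 1.97 and 1.60, and neither overlapped between groups.

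The 4 genes of the chromosomal passenger complex, which corrects faulty attachments of chromosomes to the spindle, fell by similar amounts, from 1.51 to 1.63. Aurkb, its kinase subunit Aurora B, was at 122, 97.3 and 123 FPKM in WT and 48.4, 36.2 and 29.1 FPKM in Tnfr2-/-. The WT and Tnfr2-/- libraries did not overlap and Aurkb fell by 1.59 (SE 0.17, limma adjusted p = 3.68e-05). Birc5 encodes survivin, the subunit that docks the complex on chromosomes, and was at 272, 214 and 309.5 FPKM in WT and 103, 83.7 and 71.2 FPKM in Tnfr2-/-. Each Tnfr2-/- value was under each WT value and the fall was 1.61 (SE 0.18, limma adjusted p = 5.39e-05). Incenp, the scaffold, and Cdca8, which encodes borealin, fell by 1.63 and 1.51.

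All 6 centromere and kinetochore genes were lower, with a median difference of −1.39. Cenpa, the histone H3 variant that marks centromeres, was at 224, 194 and 226 FPKM in WT and 103, 107 and 94.8 FPKM in Tnfr2-/-. Its 3 Tnfr2-/- libraries were close together and below every WT library. Cenpa fell by 1.07 (SE 0.15, limma adjusted p = 0.000271). The microtubule-capturing Ndc80 complex was represented by Ndc80, Nuf2 and Spc25, which fell by 1.26, 1.68 and 1.36. Nuf2 varied most among the Tnfr2-/- libraries of these 3, at 25.6, 13.3 and 8.69 FPKM against 53.3, 40.4 and 52.8 FPKM in WT. The kinetochore motor gene Cenpe fell by 1.80 and Cenpf, a large kinetochore and nuclear matrix protein gene, by 1.43.

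The 6 spindle genes had a median difference of −2.02. Tpx2, whose product activates Aurora A on spindle microtubules, was at 67.7, 53.5 and 65.8 FPKM in WT and 21.7, 10.8 and 8.1 FPKM in Tnfr2-/-. The groups were apart and Tpx2 fell by 2.23 (SE 0.26, limma adjusted p = 6.27e-05). Kif11 encodes Eg5, the motor that pushes spindle poles apart, and was at 53.1, 49.96 and 48.9 FPKM in WT and 18.8, 8.22 and 8.3 FPKM in Tnfr2-/-. Library 1 of Tnfr2-/- was more than 2 times as high as the other two, yet below WT, and Kif11 fell by 2.11 (SE 0.25, limma adjusted p = 6.19e-05). Kif2c, the gene of the microtubule-depolymerising kinesin MCAK, was at 55.6, 45.6 and 56.8 FPKM in WT and 17.9, 8.95 and 9.39 FPKM in Tnfr2-/-. Its Tnfr2-/- library 1 was again above the other two and below WT, and Kif2c fell by 2.10 (SE 0.21, limma adjusted p = 2.11e-05). Nusap1, Kif4 and Hmmr, which encode a spindle microtubule binder, a chromosome-bound kinesin and a spindle-associated hyaluronan receptor, fell by 1.94, 1.87 and 1.68.

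All 6 genes of the central spindle and cytokinesis were lower, with a median difference of −1.70. Racgap1 and Kif23 encode the 2 subunits of centralspindlin and fell by 1.67 and 1.63. Racgap1 (chromosome 15, 99620496 to 99651656) was at 114, 113 and 119 FPKM in WT and 54.8, 32.1 and 25.8 FPKM in Tnfr2-/-, and its Tnfr2-/- libraries overlapped with WT Th0, at 44.8, 81.5 and 51.97 FPKM, but not with WT under TNF+TGF-β. Prc1, which bundles the microtubules of the central spindle, was at 79.95, 53.9 and 82.9 FPKM in WT and 25.1, 25.3 and 24.8 FPKM in Tnfr2-/-. The 3 Tnfr2-/- values of Prc1 were nearly equal, and it fell by 1.47 (SE 0.16, limma adjusted p = 3.49e-05). Kif20a, Ect2 (the activator of RhoA at the cleavage furrow) and Anln fell by 1.94, 1.73 and 1.94. Anln had the lowest level of the members, at 7.19, 5.63 and 6.92 FPKM in WT and 1.87, 1.11 and 0.26 FPKM in Tnfr2-/-, so its change on this scale is understated, with a WT to Tnfr2-/- ratio of means of 6.09.

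Of the 5 regulators of anaphase, 4 were lower and Pttg1 was not. Cdc20, which activates the anaphase-promoting complex at the end of metaphase, was at 221, 172 and 249 FPKM in WT and 79.3, 60.00 and 39.7 FPKM in Tnfr2-/-. The groups did not overlap and Cdc20 fell by 1.86 (SE 0.21, limma adjusted p = 5.36e-05). Ube2c, the ubiquitin-conjugating enzyme of that complex, was at 467, 345 and 492 FPKM in WT and 179, 144 and 123 FPKM in Tnfr2-/- and fell by 1.54. Cdca5 encodes sororin, which protects cohesion between sister chromatids, and Cdca3 a factor linked to entry into mitosis, and they fell by 1.78 and 1.71. Pttg1 (chromosome 11, 43420250 to 43426251), the gene of securin, which restrains separase until anaphase, was at 56.8, 63.1 and 63.9 FPKM in WT and 49.4, 59.4 and 73.7 FPKM in Tnfr2-/-. Among the Tnfr2-/- libraries, 39 of the 42 members were highest in library 1. The Tnfr2-/- values of Pttg1 instead rose over libraries 1, 2 and 4, lying below, within and above the WT range in turn. Its difference was −0.03 (SE 0.18, 95% confidence interval −0.41 to 0.36, limma adjusted p = 0.919). From the largest fall, Pttg1 ranked 6264 of 13082 genes.

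The 3 genes of transcription and chromatin were all lower, with a median difference of −1.95. Foxm1 (chromosome 6, 128362967 to 128376146), a transcription factor that activates many of the other members in G2, was at 27.7, 28.3 and 28.8 FPKM in WT and 7.71, 2.74 and 2.3 FPKM in Tnfr2-/-. The WT TNF+TGF-β libraries lay close together and above all Tnfr2-/- libraries. Foxm1 fell by 2.62 (SE 0.44, limma adjusted p = 0.000772), the largest fall of the members, at rank 72 of the genes tested. Mki67 encodes Ki-67, the surfactant-like coat of mitotic chromosomes used as a marker of cycling cells, and was at 65.3, 50.4 and 65.8 FPKM in WT and 21.6, 12.5 and 11.9 FPKM in Tnfr2-/-. The groups were apart and Mki67 fell by 1.95 (SE 0.21, limma adjusted p = 3.31e-05). Top2a, the topoisomerase that untangles sister chromatids, was at 201, 177 and 203 FPKM in WT and 72.01, 46.7 and 40.01 FPKM in Tnfr2-/-, also without overlap. It fell by 1.89 (SE 0.19, limma adjusted p = 2.1e-05).

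**Figure D3:**
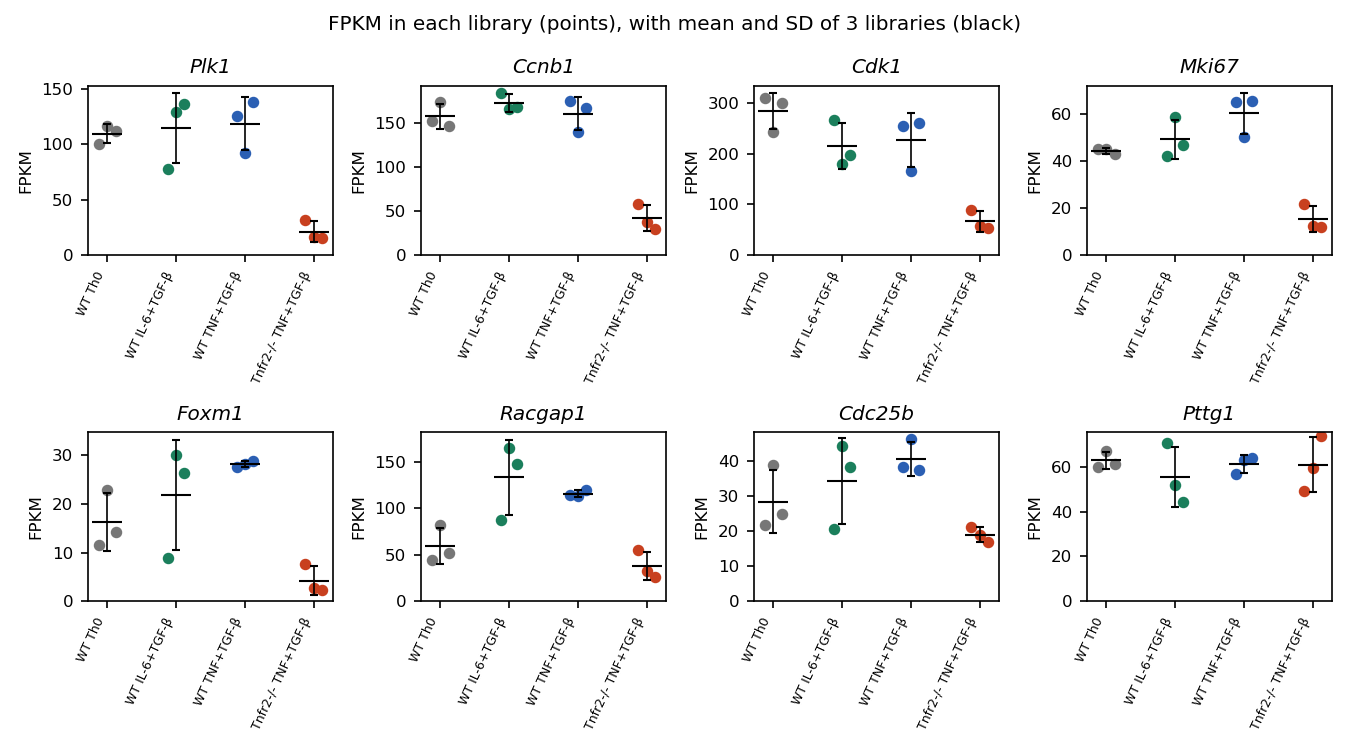
FPKM of 8 members in each library (points, 1 colour per group) with the mean and SD of the 3 libraries in black, on axes that start at 0. Tnfr2-/- is below every WT library in the panels of Plk1, Ccnb1, Cdk1, Mki67 and Foxm1, overlaps WT Th0 for Racgap1 and WT IL-6+TGF-β for Cdc25b, and overlaps every WT group for Pttg1.

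The members that fell differed in size. The median ratio of WT to Tnfr2-/- means was 3.44, with ratios of 6.65 for Foxm1, 6.09 for Anln, 5.68 for Plk1 and 5.42 for Melk at one end. At the other end were 2.4 for Ndc80, 2.14 for Cdc25b and 2.11 for Cenpa, followed by 1.01 for Pttg1. Across the 42 members the difference had a Spearman rho of −0.10 with mean transcript length and of −0.00 with the WT level, given as a description because the members share their libraries. Set against the promoter letters shown above, the 22 members whose windows held both TTTGAA and CCAAT had a median difference of −1.72, and all 22 fell. The 8 members with 1 of the 2 motifs had a median of −1.87. Of the 5 members with neither, Pttg1 had the smallest difference, while Birc5, Melk, Nuf2 and Nusap1 fell, by 1.61 to 2.41.

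The 3 Tnfr2-/- libraries were not alike, and markers of other cell types also differed between the genotypes. Of the 42 members, 39 were highest in Tnfr2-/- library 1, 33 were lowest in library 4 and 8 were lowest in library 2. All 8 B cell markers were higher in Tnfr2-/- than in WT under TNF+TGF-β (median difference 3.03), and all 8 were lowest in library 1 among the Tnfr2-/- libraries. Their summed FPKM was 1960, 3514 and 4307 in the Tnfr2-/- libraries, against 268, 340 and 263 in WT TNF+TGF-β and 422 to 1222 in the other WT libraries. None of the 8 was at 0 in any library. Of 8 myeloid markers 6 were higher in Tnfr2-/- (median 1.57), with a summed level of 1484, 1077 and 312 FPKM against 99.3, 171 and 85.5. Unlike the B cell markers, 7 of the 8 myeloid markers were highest in library 1 among the Tnfr2-/- libraries. Of 7 T cell markers 2 were lower (median −0.26), with sums of 2898, 2388 and 2011 FPKM against 2627, 2832 and 2760. Cd8a and Cd8b1 were both lower, with a median of −2.62. Of the 2 CD4 lineage markers, Cd4 was lower by 2.07 and Zbtb7b was not called, with a difference of 0.04. Zbtb7b was at 4.93, 3.32 and 4.62 FPKM in WT TNF+TGF-β and 5.23, 3.04 and 5.16 FPKM in Tnfr2-/-. After every library was scaled to the 7 T cell markers, an adjustment chosen after seeing the data, 41 members were still lower and their median difference was −1.54. Without Tnfr2-/- library 1, 2 or 4 in turn, 41 members were lower each time, with medians of −2.05, −1.73 and −1.59. The part of other cell types in the member differences was not tested. The scaling to T cell markers divides all genes of a library by 1 factor (0.719 to 1.232), so it cannot remove RNA of other cells. NK markers were near 0, with sums of 0.22 to 4.49 FPKM. Of 2 erythroid markers tested 1 was higher in Tnfr2-/-. The 4 erythroid markers listed summed to 25, 3.31 and 79.7 FPKM in Tnfr2-/- and to 1.16, 0.2 and 4.57 FPKM in WT TNF+TGF-β.

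**Figure D4:**
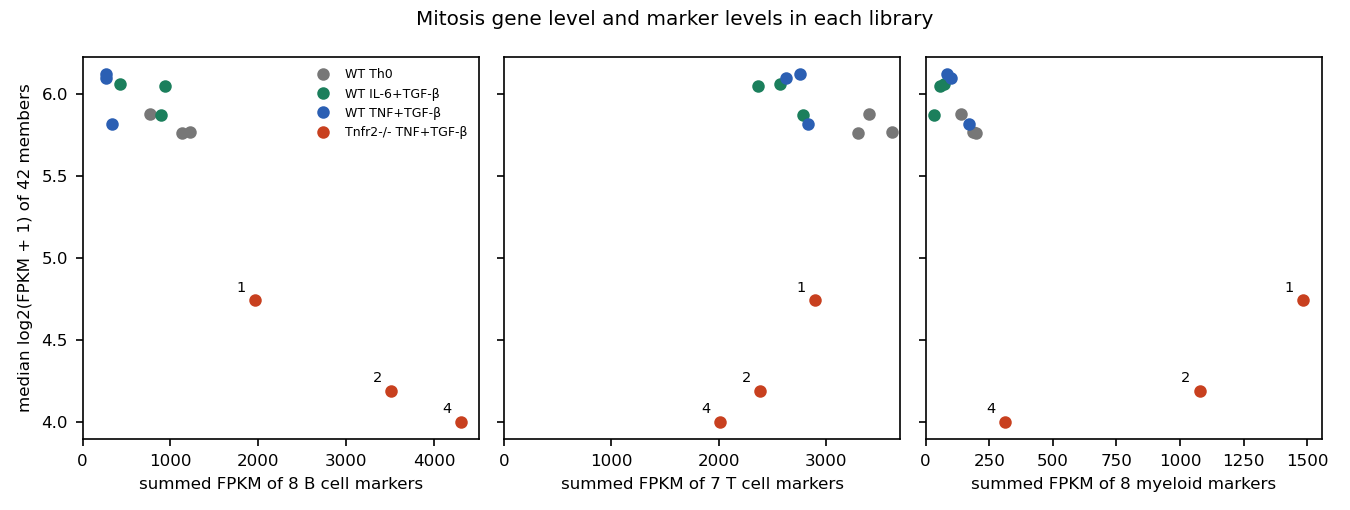
Median log2(FPKM + 1) of the 42 members (vertical axis) against the summed FPKM of 8 B cell, 7 T cell and 8 myeloid markers (horizontal axes), 1 point per library, with Tnfr2-/- libraries numbered. The Tnfr2-/- points lie at 4.0 to 4.74, under all WT points, and lie above all WT points in B cell and myeloid markers.

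Other genes of the cell cycle, in lists that hold no member, were lower in Tnfr2-/- in varying proportion. Over 102 such genes tested, 60 were lower (58.8%, against 17.5% of all genes) and 3 higher (2.94%, against 19.9%). Of the 8 condensin subunits, which compact mitotic chromosomes, 7 were lower (median −1.30), led by Ncapd2 at −2.31, Ncapg at −2.22 and Ncapg2 at −2.05. Of 22 further kinetochore and checkpoint genes 17 were lower (median −1.25), with Cenpk at −1.93, Spc24 at −1.87 and Cenpw at −1.74. Of 17 genes of the anaphase-promoting complex (APC/C), which Cdc20 and Ube2c serve, 6 were lower and 0 higher, with a median of −0.36. Those that moved most in that list were regulators, namely the inhibitor Fbxo5 at −1.09, the enzyme Ube2s at −0.73 and the activator Fzr1 at −0.70. After scaling to T cell markers Ube2s had an adjusted p of 0.055.

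Among 18 genes of the MuvB core, B-Myb, E2F and pocket proteins, 7 were lower and 1 was higher (median −0.36). For this list and the next ones, the shares over all genes tested were 17.5% lower and 19.9% higher. Mybl2, which encodes B-Myb, was at 33.5, 34.99 and 34.8 FPKM in WT and 6.96, 5.06 and 2.68 FPKM in Tnfr2-/-, without overlap, and fell by 2.66 (SE 0.37, limma adjusted p = 0.000207). E2f8 and E2f7, which encode repressor E2Fs that are themselves induced in the cycle, fell by 2.60 and 1.60. The MuvB subunit gene Lin52 was higher by 0.43, a call lost without Tnfr2-/- library 2 or 4 or WT TNF+TGF-β library 1 or 3 (limma adjusted p = 0.0678, 0.0766, 0.113 and 0.0894). Of 8 G1 cyclin and kinase genes 6 were lower, with Ccne2 at −1.81, Ccne1 at −1.55 and Ccnd1 at −1.43. Of 18 S phase genes 14 were lower (median −1.18), with Uhrf1 at −2.41, Tyms at −1.80 and Rrm2 at −1.67. Of 11 brakes on CDK activity tested, 2 were higher and 3 lower, where 19.9% and 17.5% of all genes were called. The CDK inhibitor gene Cdkn1b (p27) was at 8.06, 8.46 and 8.5 FPKM in WT and 14.8, 18.2 and 28.5 FPKM in Tnfr2-/-. The summed B cell markers of those Tnfr2-/- libraries rose in the same order, at 1960, 3514 and 4307 FPKM. Whether other cell types had a part in the Cdkn1b difference was not tested. Cdkn1b rose by 1.15 (SE 0.24, limma adjusted p = 0.00303), and Gadd45a, a growth arrest gene, rose by 1.13. Pkmyt1, a kinase that inhibits Cdk1, fell by 1.44, Wee1, which does likewise, fell by 0.62, and Cdkn1a (p21) fell by 1.34. The Cdkn1a call was lost without Tnfr2-/- library 2 or 4 or WT TNF+TGF-β library 1 or 3 (limma adjusted p = 0.0703, 0.071, 0.0769 and 0.0973).

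In WT cells, 38 of the 42 members were called in none of the 3 comparisons between cytokine conditions, a count that depends on the scaling as given for each comparison. These comparisons share libraries, so their values are given side by side. The member differences ran from −0.52 to 1.00 for TNF+TGF-β against Th0, from −0.42 to 1.15 for IL-6+TGF-β against Th0 and from −0.55 to 0.53 between both cytokine groups.

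**Figure D5:**
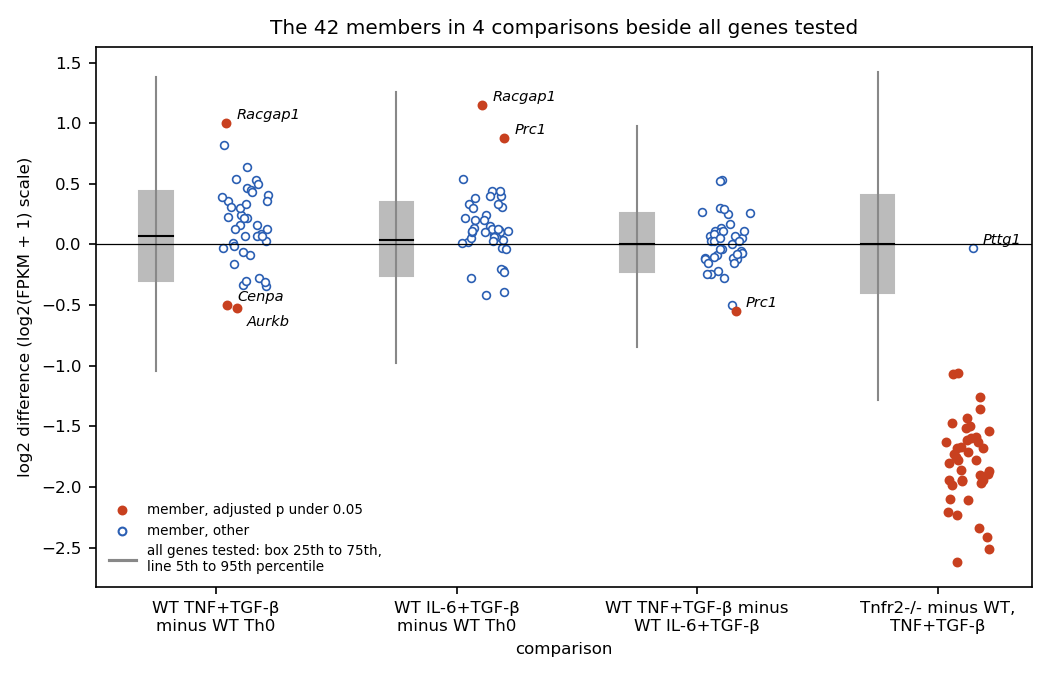
Log2 difference of each member in the 4 comparisons (points, filled red where the limma adjusted p is under 0.05, open blue otherwise) beside all genes tested (grey box from the 25th to the 75th percentile with the median, line from the 5th to the 95th). The members scatter around 0 in the 3 WT comparisons and lie between −2.62 and −1.06 in the Tnfr2-/- comparison, apart from Pttg1.

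With TNF+TGF-β against Th0, 1 member was higher and 2 were lower, where 18.7% and 13% of all genes were called. The groups did not overlap for 15 members that were higher (31.9% of all genes) and 4 that were lower (23.2%). Under TPM scaling 72.5% of the calls over all genes were of higher genes, against 58.9% as reported, 48.2% with median-ratio scaling and 78.3% after scaling to T cell markers. The median difference of the members was 0.16, against 0.07 over all genes. Racgap1 was at 44.8, 81.5 and 51.97 FPKM in Th0 and 114, 113 and 119 FPKM with TNF+TGF-β. The groups did not overlap and Racgap1 rose by 1.00 (SE 0.30, limma adjusted p = 0.0247). Aurkb was at 160.1, 154 and 178 FPKM in Th0 and 122, 97.3 and 123 FPKM with TNF+TGF-β, without overlap, and fell by 0.52 (SE 0.17, limma adjusted p = 0.0348). Cenpa was at 335, 278 and 302 FPKM in Th0 and 224, 194 and 226 FPKM with TNF+TGF-β, likewise apart, and fell by 0.50 (SE 0.15, limma adjusted p = 0.0277). Each call depended on single libraries. The Racgap1 call was lost without any 1 of the 3 TNF+TGF-β libraries or Th0 library 1 or 3, at limma adjusted p between 0.0605 and 0.0981. The Aurkb call was lost without TNF+TGF-β library 1 or 2 or any Th0 library (between 0.0532 and 0.141), and the Cenpa call without TNF+TGF-β library 1 or 2 or Th0 library 1 or 3 (between 0.0592 and 0.106). The count of higher members was 7 without Tnfr2-/- library 1, 3 without Tnfr2-/- library 4, 2 without IL-6+TGF-β library 1 and 11 when only these 2 groups were fitted. With TPM scaling it was 6, with 1 member lower, and after scaling to T cell markers it was 12, with 0 lower.

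With IL-6+TGF-β against Th0, 2 members were higher and 0 lower, where 14.1% and 9.15% of all genes were called. Without overlap, 13 members were higher (22.4% of all genes) and 1 was lower (16.8%). After scaling to T cell markers 83.1% of the calls over all genes were of higher genes, against 60.6% as reported. The median difference of the members was 0.12, against 0.04 over all genes. Prc1 (chromosome 7, 80294450 to 80316259) was at 59.4, 55.02 and 54.5 FPKM in Th0 and, under IL-6+TGF-β, 119, 93.4 and 102 FPKM. The groups were well apart and Prc1 rose by 0.88 (SE 0.16, limma adjusted p = 0.00146), a call kept when any 1 library was left out. Under IL-6+TGF-β Racgap1 was at 87.6, 164 and 148 FPKM, all above Th0, and rose by 1.15 (SE 0.30, limma adjusted p = 0.0154). That call was lost without IL-6+TGF-β library 2 or 3 or Th0 library 1 or 3, at limma adjusted p between 0.0577 and 0.0672. The count of higher members was 5 without Tnfr2-/- library 1 and 6 when only these 2 groups were fitted, and it was 13 after scaling to T cell markers. In the other direction, 1 member was lower without IL-6+TGF-β library 1.

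With TNF+TGF-β relative to IL-6+TGF-β, 0 members were higher and 1 was lower, where 7.31% and 5.50% of all genes were called. Without overlap, 3 members were higher (16.9% of all genes) and 3 lower (15.1%). The median difference of the members was 0.01, and it was −0.02 with median-ratio scaling and −0.06 after scaling to T cell markers. Prc1 was the member called, at 79.95, 53.9 and 82.9 FPKM with TNF+TGF-β and, in the other group, 119, 93.4 and 102 FPKM. The groups did not overlap and Prc1 fell by 0.55 (SE 0.16, limma adjusted p = 0.0376). The call was lost when any 1 of 8 libraries was left out, namely each Th0 library, IL-6+TGF-β library 1 or 3, TNF+TGF-β library 1 or 2, or Tnfr2-/- library 2, at limma adjusted p between 0.0504 and 0.122, and 1 member was higher without Tnfr2-/- library 1.

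For the core members Ccnb1, Plk1, Top2a and Cdc20 the WT groups overlapped in every comparison, as they did for Cdk1, given below. Here IL-6 and TNF stand for each cytokine with TGF-β. Ccnb1 was at 152, 174 and 146 FPKM in Th0 and 184, 166 and 168 FPKM under IL-6. Plk1 was at 100.02, 117 and 112 FPKM in Th0 and 77.9, 129 and 136 FPKM under IL-6. Against the TNF+TGF-β values given above, both genes overlapped between all WT groups, and the difference of Ccnb1 between TNF+TGF-β and Th0 was 0.03 with a 95% confidence interval of −0.40 to 0.46. Top2a was at 171, 194 and 187 FPKM in Th0 and 171, 223 and 206 FPKM under IL-6. Cdc20 was at 208, 239 and 230.4 FPKM in Th0 and 252, 221 and 232 FPKM under IL-6. For both genes the WT groups overlapped, and Top2a had a TNF+TGF-β to Th0 difference of 0.07 (95% confidence interval −0.33 to 0.48).

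Cdk1 was at 309, 243 and 300.1 FPKM in Th0 and 266, 180.03 and 197 FPKM under IL-6, a difference of −0.42 that did not pass (limma adjusted p = 0.239). Birc5 was at 325, 305 and 324 FPKM in Th0 and 476, 331 and 325 FPKM under IL-6, with IL-6+TGF-β library 1 above all others. Ccnb2 was at 143, 117 and 144 FPKM in Th0 and 207, 147 and 153 FPKM under IL-6. Aurka was at 83.99, 74.2 and 87.9 FPKM in Th0 and 126, 93.4 and 107 FPKM under IL-6. Neither overlapped between these groups, and neither passed (limma adjusted p = 0.32 and 0.196). Under IL-6 Aurkb was at 150.3, 128 and 126 FPKM, below its Th0 values without passing the test, and Cenpa was at 297, 219 and 189 FPKM, overlapping its Th0 values. Mki67 was at 45.04, 45.3 and 43.01 FPKM in Th0 and 42.3, 58.8 and 46.99 FPKM under IL-6, and its TNF+TGF-β libraries were all above Th0 with a difference of 0.43 (limma adjusted p = 0.137). Foxm1 was the most variable member within WT groups, with a pooled SD of 0.59 on the log2 scale against a median of 0.18 over the members. It was at 11.5, 22.9 and 14.3 FPKM in Th0 and 8.96, 30.1 and 26.4 FPKM under IL-6, where library 1 was low.

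Of the 102 other cell cycle genes tested, 10 rose and 10 fell with TNF+TGF-β against Th0, 6 and 4 with IL-6+TGF-β against Th0, and 3 and 4 between both cytokine groups. These are 9.80% and 9.80%, 5.88% and 3.92%, and 2.94% and 3.92% of the list, each below the share of all genes called in that comparison and direction given above. Among the genes called were some of G1 and quiescence. Rbl2, which encodes the pocket protein p130 of the DREAM complex, was at 6.8, 11.02 and 8.6 FPKM in Th0 and 38.5, 50.1 and 29.4 FPKM with TNF+TGF-β, without overlap. It rose by 2.03 (limma adjusted p = 0.000114). The D-type cyclin gene Ccnd1 rose by 1.87 with TNF+TGF-β and by 1.2 with IL-6+TGF-β, from low levels of 0.62, 0.06 and 0.17 FPKM in Th0. Ccnd2 fell by 1.47 with IL-6+TGF-β and was also called lower with TNF+TGF-β. It was at 1154, 946 and 1276 FPKM in Th0 and 695, 679 and 732 FPKM with TNF+TGF-β. The latter call was lost without TNF+TGF-β library 1 or 2 or Th0 library 1 or 3, at limma adjusted p between 0.0549 and 0.0778. Cdkn2d and Gadd45a, both brakes on CDK activity, rose by 1.46 and 1.36 with IL-6+TGF-β.

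B cell markers moved in these WT comparisons as well. The WT group given TNF had 8 of 8 of them lower than Th0 (median −1.69) and 5 of 8 lower than the group given IL-6 (median −1.29). Across the 9 WT libraries the median Pearson correlation over the 861 pairs of members was 0.31, and over all 12 libraries it was 0.95. The pairs share their libraries, and the larger value includes the difference between genotypes.

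Some members share exon bases with a neighbouring gene, and the library kit did not mark strand, so reads within the shared bases cannot be assigned by strand. At least 10% of exon bases were shared for 6 members, namely Kif20a with Cdc23 (29.3%), Ube2c with Tnnc2 (22.8%), Kif4 with Pdzd11 (15.1%), Cdc25c with Gm3550 (12.7%), Ccna2 with Exosc9 (12.5%) and Prc1 with Rccd1 (11.1%).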

How the data were processed

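RNA of the 12 samples was made into SMARTer Ultra Low v4 and Nextera XT libraries, a chemistry that does not mark strand, per the labels' protocols. The authors deposited 1 table of FPKM values per gene and library, and Trimmomatic, STAR 2.5.4, RSEM 1.3.1 and mm10 are named in the submitters' processing notes. The unit was taken from the values, whose sums differ between libraries (689045 to 828161), as TPM would not. The gene annotation is not given in the sources used here, and 99.1% of the gene IDs, without version, were in GENCODE vM21, from which positions and lengths came.

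Depth was estimated, after the data were seen, from the spacing of low FPKM in 8697 genes with 1 transcript, which gave 16900000 to 24000000 fragments per library. Of the low values 79.7 to 88.6% lay within 0.2 of a whole multiple, so whole reads were not recovered and no count test was run. At those depths 3 fragments on 1 kb correspond to 0.125 to 0.178 FPKM.

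A gene had to reach 1 FPKM in 3 or more libraries to be tested (13082 genes), on the log2(FPKM + 1) scale, which understates changes of low genes. All 42 members passed that filter. limma 3.58.1 in R 4.3.3 was fitted to all 12 libraries with 1 mean per group and a variance trend, and Benjamini-Hochberg adjustment ran over all genes tested in a comparison, with a call at an adjusted p under 0.05. The code was tested on simulated data. The members, pathway lists, markers and tests were chosen with earlier results of these data known. Full values are given for 12 core members and for up to 8 called members per comparison with the largest differences, and of each pathway list up to 3 called genes are named. Lin52, Gadd45a and Wee1, and the knockout values per library of Cdc25b, Cdc25c, Nuf2, Racgap1, Prc1, Anln, Ube2c and Pttg1, were added after their values were seen. So were the values per library of Ccnd1, Ccnd2 and Zbtb7b. Alternatives were a pseudocount of 0.1, no filter on low values (24076 genes), TPM and median-ratio scaling, only the 2 groups compared, no variance trend, the replicate number as a block, each library left out and, added after seeing the data, scaling to 7 T cell markers. The Tnfr2-/- columns are numbered 1, 2 and 4, and the labels number the samples of that group 1, 2 and 3. Column 4 was taken as the third library of the group, and no label links it to sample 3.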

Additional observations from a re-analysis of the deposited data

How the results depend on the processing

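In Tnfr2-/- against WT, 41 members were lower and 0 higher under each of the 20 alternatives, and all 840 single member values kept their side of the threshold. The 820 values of the 41 called members kept their direction, while Pttg1, called in none, changed sign in 3 of 20. The median difference lay between −2.05 and −1.59 when 1 library was left out, and was −1.90 with TPM scaling, −1.58 with the replicate block and −1.54 scaled to T cell markers. The WT counts were less stable, and the cause was not tested. Against Th0, TNF+TGF-β gave 6 members higher, 1 lower and a median of 0.33 with TPM scaling, 0 and 0 without a filter, 11 higher with only the 2 groups compared, 3 higher with the replicate block, and 12 higher, 0 lower and a median of 0.36 scaled to T cell markers. IL-6+TGF-β against Th0 gave a median of 0.23 with TPM scaling, 1 lower with median-ratio scaling or the replicate block, 6 higher with only the 2 groups compared, and 13 higher with a median of 0.40 scaled to T cell markers. The comparison of both cytokine groups gave 0 lower without a filter or without a variance trend, 1 higher and 0 lower with only the 2 groups compared, and 2 lower scaled to T cell markers. Leaving out 1 library gave 0 to 7 higher and 0 to 2 lower, 1 to 5 higher and 0 to 1 lower, and 0 to 1 higher and 0 to 1 lower in these comparisons in turn. Scaling moved the median of all genes, by 0.154 and 0.095 with TPM for TNF+TGF-β and IL-6+TGF-β against Th0, and by 0.170 and 0.236 scaled to T cell markers. In Tnfr2-/- against WT those shifts were −0.111 and 0.207.

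Among the other cell cycle lists in Tnfr2-/- against WT, scaling to T cell markers gave 1 gene higher and 3 lower for the APC/C, 2 higher for MuvB and E2F, and 1 higher each for G1 and S phase genes. MuvB and E2F genes had 0 higher with TPM or median-ratio scaling, only the 2 groups compared or the replicate block, and 0 to 2 when 1 library was left out. Brakes on CDK activity had 1 lower with only the 2 groups compared and 1 to 3 when 1 library was left out, and the APC/C had 0 to 1 higher and 4 to 9 lower.

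The replicate numbers were not used as pairs in the main fit, and whether they pair the samples was not settled. Correlations of same-numbered libraries were 0.043 to 0.135 for TNF+TGF-β and Th0, 0.051 to 0.344 for IL-6+TGF-β and Th0, −0.029 to 0.203 for TNF+TGF-β and IL-6+TGF-β, and 0.082 and 0.009 for Tnfr2-/- and WT, where library 4 was alone in its block. Differently numbered libraries had correlations of −0.105 to 0.029, −0.34 to 0.104, −0.262 to 0.181 and −0.063 to 0.031 in these comparisons in turn. For TNF+TGF-β and Th0 every same-numbered value lay above every differently numbered one. The 3 libraries per group limit the precision of each difference, and levels under 3 fragments were not resolved.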
